A study of Mus musculus with 12 samples.

Results

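The Ctr9 binding maps of mouse embryonic stem cells (mESCs) and NIH3T3 fibroblasts were compared gene by gene. Ctr9 ChIP-seq gave 44748 peaks in mESCs and 22016 in NIH3T3 cells, from 2 of the 12 samples of the series. For each of 21938 protein-coding genes on the assembled mm10 chromosomes, the peaks were laid over the gene body, the 1 kb upstream and the 5 kb downstream. The bps under peaks and the strongest fold enrichment, which is the pileup at a peak summit over the local background, were then read for each cell line. A gene was called covered when at least 1 bp of this region lay under a peak.

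Ctr9 is a core subunit of Paf1C, the Paf1 complex, which travels with RNA polymerase II (RNAPII) on transcribed genes. Paf1C takes part in the release of RNAPII from pausing near the start, in elongation through the gene body, in the ubiquitination of histone H2B behind the polymerase, and in events at the 3′ end of the transcript. ChIP-seq of Ctr9 can therefore be read in part as a map of genes in transcription, with the position along the gene as a second kind of information. The study also reports Ctr9 at enhancers, above all super enhancers, and strongly expressed genes without Ctr9 binding. A peak in a gene region can thus lie on an enhancer, and enhancer peaks were not set apart here.

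Both lines carry a GFP tag at the 3′ end of Ctr9, made by CRISPR/Cas9 knock-in, and the tagged protein was pulled down with an anti-GFP antibody in both. The mESCs were of the E14 line, which grows as pluripotent cells in the presence of LIF, and NIH3T3 is an established line of embryonic fibroblasts. By the methods, both were grown in the same medium with serum and LIF, and each tagged line was a pool of sorted GFP-positive cells rather than a clone. RNA-seq and H3K27ac ChIP-seq of the same lines were used as measures that played no part in the classes of coverage. Every assay was 1 library per line, the RNA-seq libraries summed to 26400407 estimated counts in mESCs and 28849497 in NIH3T3 cells, and the peak lists do not give the depth of each ChIP-seq library. No difference below was tested against replicate spread.

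The 2 RNA-seq libraries carried the markers of their labels. All 10 pluripotency markers reached at least 10 TPM, the RNA-seq level corrected for transcript length and library size, in mESCs and none did in NIH3T3 cells, while all 11 fibroblast markers did so in NIH3T3 cells and 1 in mESCs, Fn1. Of 43 neural, muscle, blood, liver, endoderm and trophoblast markers, none reached this level in NIH3T3 cells and Tubb3 (31.4 TPM) and Cd68 (60.2 TPM) did in mESCs. In bulk samples a smaller number of cells of a type and less RNA per cell cannot be told apart. All 10 pluripotency markers were covered by Ctr9 in mESCs and none in NIH3T3 cells. Of the fibroblast markers, 6 were covered in NIH3T3 cells only, Fn1 in both lines, and Col3a1, Postn, Thy1 and Twist1 in neither.

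Ctr9 covered more genes in mESCs than in NIH3T3 cells, and genes covered in NIH3T3 cells were mostly covered in mESCs as well. In mESCs 9679 genes (44.1%) were covered, and in NIH3T3 cells 5659 (25.8%). Both lines covered 4910 genes (22.4%), mESCs alone 4769 (21.7%), NIH3T3 cells alone 749 (3.41%), and neither line 11510 (52.5%). Hence 86.8% of the NIH3T3 genes were shared with mESCs and 50.7% of the mESC genes with NIH3T3 cells. The mESC list holds more peaks. When it was reduced to its 22016 strongest peaks by q-value, 4534 genes were covered in both lines, 3762 in mESCs alone and 1125 in NIH3T3 cells alone. Regions of neighbouring genes often overlap (12378 genes, 56.4%), so 1 peak can cover several genes. Among the genes that overlap no other, 945 were covered in both lines, 1289 in mESCs only and 348 in NIH3T3 cells only.

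Coverage of shared genes was longer in mESCs. The median gene covered in both lines had 3866 bps under mESC peaks and 1726.5 bps under NIH3T3 peaks, and the median log2 ratio of covered bps was 0.83. On the gene body alone, without the flanks, it was 0.44. This ratio was above 0 in 3468 of 4910 genes (70.6%), above 1 in 2277 (46.4%) and below -1 in 563 (11.5%). The strongest fold enrichment differed less, with a median of 6.85 for mESC peaks, 5.33 for NIH3T3 peaks and 0.31 for the log2 ratio. Genes covered in a single line had less coverage. The medians were 1592 bps and 4.89-fold for the mESC-only genes, against 867 bps and 4.75-fold for the NIH3T3-only genes. At least 50% of the region lay under peaks in 638 shared genes by mESC peaks and in 358 by NIH3T3 peaks, and in 175 mESC-only and 19 NIH3T3-only genes. Across the 4910 shared genes, Spearman's rho between the lines was 0.39 for covered bps, 0.61 for the covered share of the region and 0.35 for the strongest fold. These are descriptions across genes, which share libraries and gene length and are no independent replicates.

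**Figure D1:**
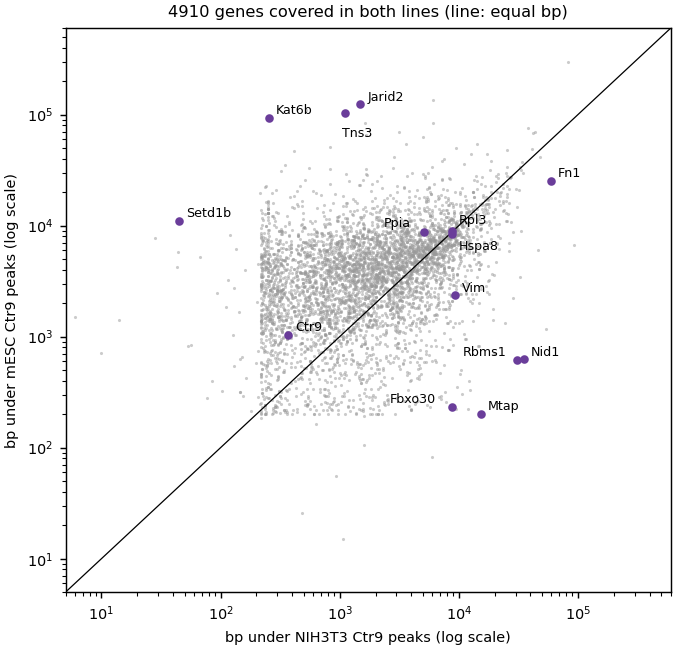
Bps under Ctr9 peaks in the gene region of the 4910 genes covered in both lines, NIH3T3 cells on the x axis and mESCs on the y axis, both on log scales, with 1 point per gene. The diagonal marks equal bps, 3468 genes lie above it, and named genes of the text are marked in purple.

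Single genes were ranked only where their strongest peak met the region of no other gene. The 8 with the highest fold enrichment in both lines were Rpl3, Hspa8, Eif1, Rps12, Ubb, Frmd8, Egr1 and Slc38a2. Rpl3, a protein of the large ribosomal subunit (chr15:80077791-80091868), had 8933 bps and 34.9-fold in mESCs against 8766 bps and 40.9-fold in NIH3T3 cells, and 8652 bps of these were the same bases. Hspa8, the constitutive HSP70 chaperone (chr9:40800984-40810087), had 8470 bps and 39.1-fold against 8709 bps and 31.7-fold. Rps12, of the small ribosomal subunit (chr10:23785183-23787275), was covered over 87.2% and 87.7% of its region, at 32.7-fold and 28.0-fold. Eif1, which acts in start codon selection, had 5060 bps and 29.1-fold in mESCs and 5339 bps and 31.1-fold in NIH3T3 cells. Ubb, a ubiquitin gene, had 6282 bps and 22.9-fold against 6604 bps and 25.6-fold. For these 5 genes both the extent and the strength were close between the lines.

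The other 3 of the 8 shared genes with the highest fold were less alike. Egr1, an immediate early transcription factor, had 47.8-fold in NIH3T3 cells against 19.7-fold in mESCs, with RNA at 73.6 and 15.9 TPM. Slc38a2, an amino acid transporter, had 13578 and 13043 bps but 26.8-fold in mESCs against 19.7-fold in NIH3T3 cells. Frmd8 stood out by its low RNA of 7.72 and 13.7 TPM, and its strongest peaks, of 27.4-fold and 22.0-fold, lay past its end with both summits inside Neat1, the long noncoding RNA of nuclear paraspeckles. Of the genes used as references in many assays, Actb had 7985 and 8404 bps with 33.1-fold and 15.3-fold, and Ppia had 8753 and 5061 bps with 33.5-fold and 16.4-fold in mESCs and NIH3T3 cells, respectively, where the strongest mESC peak of Ppia also met the region of another gene. The tagged gene Ctr9, transcribed at 29.0 and 19.5 TPM, had 1034 bps and 5.56-fold in mESCs and 368 bps and 4.18-fold in NIH3T3 cells, with no base in common.

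The highest fold among the mESC-only genes ranked lay at a cluster of microRNAs. It was assigned to Nlrp12 (chr7:3218784-3249740), a gene of the innate immune system whose own RNA was at 0.0366 TPM in mESCs and 0.0170 TPM in NIH3T3 cells. Its strongest peak, at 52.3-fold, spans 6200 bps at chr7:3217737-3223936 and holds 9 microRNA genes of the Mir290 to Mir295 cluster, which is known for its high expression in mESCs. RefSeq gives 17 mature sequences for them. The 3p arms given for the plus strand are shown 5′ to 3′, with bases 2 to 8, the seed that pairs with target transcripts, in capitals.
mmu-miR-291a-3p: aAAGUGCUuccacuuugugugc
mmu-miR-294-3p: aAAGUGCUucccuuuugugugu
mmu-miR-295-3p: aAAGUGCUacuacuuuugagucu
mmu-miR-291b-3p: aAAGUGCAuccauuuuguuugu
mmu-miR-290a-3p: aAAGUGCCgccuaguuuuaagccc
mmu-miR-293-3p: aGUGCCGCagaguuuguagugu

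The seed AAGUGCU was shared by 3 of these, miR-291a-3p, miR-294-3p and miR-295-3p. The peak covered the whole cluster, so Ctr9 coverage did not separate its members, and no NIH3T3 peak met Nlrp12 or the cluster.

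Of the other 7 genes with the highest mESC-only fold, 4 act in pluripotent cells. Fgf4 (chr7:144847367-144865243), a growth factor that mESCs secrete, had 9041 bps and 30.2-fold with 146 TPM. Zfp42 (chr8:43295063-43306980), the Rex1 marker of naive cells, was covered over 97.3% of its region with 30.1-fold and 286.0 TPM. Gene bodies run between the outermost annotated ends and can be longer than the main transcript. Esrrb (chr12:86361117-86521628), an orphan nuclear receptor of the pluripotency network, had 55254 bps with 24.7-fold, of which 50426 lay in the last of 3 equal parts of the body and 4828 past the end. L1td1, an RNA-binding protein gene of pluripotent cells, had 96.5% of its region covered with 24.0-fold. All 4 were at 0 TPM in NIH3T3 cells. Hist1h1a, a linker histone gene, had 31.3-fold over 2028 bps. Agtrap and Txnip, whose products bind the angiotensin receptor and thioredoxin, had 30.0-fold and 28.5-fold and were also transcribed in NIH3T3 cells, at 6.80 and 11.9 TPM.

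The core pluripotency factors were covered over most of their regions in mESCs. Pou5f1, which encodes Oct4 (chr17:35506018-35510772), had 10310 bps, which is 95.9% of its region, at 16.5-fold. Sox2 (chr3:34650405-34652461) had 7706 bps, 95.6% of its region, at 18.2-fold. Nanog (chr6:122707489-122714633) had 9523 bps, 72.4%, at 13.1-fold. In all 3 genes the strongest summit lay past the annotated end, and for Pou5f1 that peak also met the region of another gene. By length, the largest mESC-only coverage among the genes ranked was on Enox1 (117849 bps, 158 peaks), which encodes a cell surface oxidase, on Tet1 (85860 bps, 55 peaks), the 5-methylcytosine dioxygenase, on Esrrb, on Zfp532 (53073 bps) and on Tfcp2l1 (47340 bps), a transcription factor of naive cells. Enox1 carried 103627 of its bps in the last of 3 equal parts of the body, whereas on Tet1 the 3 parts held 21665, 30286 and 29038 bps.

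The 8 NIH3T3-only genes with the highest fold were Jun, Prrx1, Rims3, Hmga2, Cemip, Fosl2, Rhob and Fosb. Jun, Fosl2 and Fosb encode subunits of the transcription factor AP-1. Jun (chr4:95049034-95052222) had 5640 bps and 33.3-fold, with RNA at 55.2 TPM in NIH3T3 cells and 3.25 TPM in mESCs. Fosl2 (chr5:32135801-32157842) had 24404 bps and 14.5-fold at 74.6 and 1.14 TPM. Fosb (chr7:19302696-19310051) had 8313 bps and 14.2-fold although its RNA was at 0.486 TPM. Prrx1 (chr1:163245119-163313710), a homeobox factor of limb and craniofacial mesenchyme, had 60775 bps in 12 peaks, 81.5% of its region, at 29.2-fold and 183 TPM. Hmga2 (chr10:120361275-120476469), an architectural chromatin protein, had 108857 bps, 89.8% of its region, at 17.0-fold, with 244 TPM in NIH3T3 cells and 12.9 TPM in mESCs.

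Cemip, which takes part in hyaluronan breakdown, had the most bps of the NIH3T3-only genes ranked, 124153 over 77.8% of its region (chr7:83932857-84086502). Asap1, a regulator of Arf GTPases and focal adhesions, followed with 106642 bps in 179 peaks, and Tgfbr3, the TGF-β co-receptor betaglycan, with 77383 bps in 121 peaks. Rhob, a small GTPase of the actin cytoskeleton, had 3615 bps and 14.3-fold. Rims3, a gene of synaptic vesicle release, was the exception, with 672 bps of a 17.8-fold peak at the far edge of its downstream 5 kb and RNA at 0.0122 TPM.

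MicroRNA hairpins lay under peaks in either line. Of 1005 hairpins in the RefSeq table, which lists Mir291a by its mature sequences only, 105 (10.4%) lay under mESC peaks only, 33 (3.28%) under NIH3T3 peaks only, 48 (4.78%) under both and 819 (81.5%) under neither. The 5 hairpins named next lay under NIH3T3 peaks only. Mir31 (chr4:88910557-88910662) lay in a peak of 21018 bps at 16.4-fold, Mir21a (chr11:86584067-86584158) in 1 of 5097 bps at 10.1-fold, and Mir199a-2 (chr1:162217814-162217923) in 1 of 4873 bps at 8.71-fold. Mirlet7b (chr15:85707319-85707403) lay in a peak of 5992 bps at 7.68-fold, and Mir29a (chr6:31062660-31062747) in 1 of 3478 bps at 5.68-fold. Of other let-7 genes, Mirlet7c-2 also lay under an NIH3T3 peak only (2316 bps, 6.52-fold). Mirlet7g lay under an mESC peak only (793 bps, 3.98-fold) and Mirlet7i under peaks of both lines. The sequences, with the seed in capitals as above, show that none of the 5 shares a seed with the mESC cluster. These hairpins were picked after their values were seen, and a peak over a hairpin can belong to its host gene.
mmu-miR-31-5p: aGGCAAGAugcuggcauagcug
mmu-miR-21a-5p: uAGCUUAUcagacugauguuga
mmu-miR-199a-5p: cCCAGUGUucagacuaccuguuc
mmu-let-7b-5p: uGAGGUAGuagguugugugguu
mmu-miR-29a-3p: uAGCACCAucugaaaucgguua

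By length, the shared genes ranked high by the smaller of the 2 values included Nedd4 (68262 and 41735 bps), a ubiquitin ligase, Arid5b (41697 and 47654 bps), Chd2 (75979 and 37834 bps), a chromatin remodeller, and Csnk1a1 (33581 and 25296 bps), a kinase of the Wnt pathway. Of these 4, 3 had more bps in mESCs, and Arid5b, a DNA-binding cofactor, had more in NIH3T3 cells.

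Of the shared genes ranked, the 5 with the most lopsided coverage toward mESCs were Kat6b, Setd1b, Tns3, Atrnl1 and Tle4. Kat6b, a histone acetyltransferase, had 93789 bps in 167 peaks in mESCs and 253 bps in 1 peak in NIH3T3 cells, with RNA at 34.5 and 3.84 TPM. Tns3, a focal adhesion protein, had 103286 and 1119 bps at 82.6 and 22.8 TPM. Tle4, a Groucho co-repressor, had 19493 and 269 bps at 21.3 and 3.17 TPM. Atrnl1 went against its RNA, with 19627 and 216 bps but 2.03 TPM in mESCs and 19 TPM in NIH3T3 cells. On Setd1b, a subunit of an H3K4 methyltransferase complex, the NIH3T3 value of 45 bps is the edge of a peak, and in both lines the strongest summit lay beyond the 1 kb upstream.

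At the other extreme were Mtap, Nid1, Rbms1, Fbxo30 and Ptbp2. Mtap, the methylthioadenosine phosphorylase of methionine salvage, had 202 bps in mESCs and 15321 bps in NIH3T3 cells, with 25.1 and 234 TPM. Nid1, the basement membrane protein nidogen-1, had 623 and 35267 bps at 104 and 537 TPM. Rbms1, an RNA-binding protein, had 621 and 30969 bps at 19.3 and 57.3 TPM. In each of these 5 genes all mESC bps lay in the 5 kb past the end.

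The functions covered differed by line, and lists of genes with related functions are described here by how many members fell in each class, to be read against the shares of all genes of 22.4% in both, 21.7% in mESCs only, 3.41% in NIH3T3 cells only and 52.5% in neither. Of 45 pluripotency genes, 31 were covered in mESCs only, 8 in both, none in NIH3T3 cells only and 6 in neither. The shared members included Klf4, with 6047 and 3690 bps and RNA at 89.7 and 26.3 TPM, and Jarid2, a subunit of Polycomb repressive complex 2, with 123666 and 1495 bps. Nodal had 4445 bps in NIH3T3 cells at 0 TPM, and its strongest peak also met the region of another gene. Dnmt3b, Dppa3, Lin28b, Nr6a1, Otx2 and Tex19.1 had no peak in either line.

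Of 54 fibroblast matrix genes, which encode collagens, other matrix proteins and their processing enzymes, 25 were covered in NIH3T3 cells only, 8 in both, 2 in mESCs only and 19 in neither. Col1a2, a chain of collagen I, had 34330 bps and 13.9-fold at 1082 TPM, and Col1a1, the partner chain, 8268 bps and 7.95-fold at 901 TPM. Col5a1 had 46902 bps and 7.55-fold at 94.5 TPM. None of the 3 had a peak in mESCs, where their RNA was at 0.132, 0.203 and 2.38 TPM. Vim, the intermediate filament protein of mesenchymal cells, was shared, with 2362 bps in mESCs and 9254 bps in NIH3T3 cells at 162 and 1829 TPM. Fn1 was shared as well, with 25401 and 59421 bps. Over the 8 shared members the median log2 ratio of covered bps was -1.60, on the NIH3T3 side, against 0.83 for all shared genes. Col3a1 (67.9 TPM in NIH3T3 cells), Dcn (62.7 TPM) and Thy1 (168 TPM) were transcribed without a peak.

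Mesenchymal transcription factors leaned to NIH3T3 cells as well, with 11 of 41 covered in NIH3T3 cells only, 16 in both, none in mESCs only and 14 in neither. Twist2, a basic helix-loop-helix factor, had 14556 bps in NIH3T3 cells at 59.3 TPM. Of 42 actin and contractile genes, 27 were shared, 6 were covered in NIH3T3 cells only and 4 in mESCs only. Zyx, the focal adhesion protein zyxin, had 11633 bps in NIH3T3 cells only, at 136 TPM against 2.18 TPM in mESCs, and Actn1, an actin crosslinker, had 15018 bps against 11548 bps in mESCs.

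Immediate early genes, which respond to serum and growth factors within minutes, were covered in NIH3T3 cells in 25 of 26 cases, 18 of them shared and 7 in NIH3T3 cells only. Klf10 was the 1 member covered in mESCs only (9523 bps), with similar RNA of 50.7 and 58.7 TPM. Ier2 had 7442 bps and 12-fold in mESCs and 4811 bps and 19.6-fold in NIH3T3 cells. Mcl1, an anti-apoptotic BCL2 family gene, had 10389 and 9538 bps. Among the NIH3T3-only members, Ier5 had 4545 bps at 55.6 TPM and Egr3 1155 bps at 13.5 TPM.

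Of 40 genes of TGF-β and growth factor signalling, 13 were shared, 8 were covered in mESCs only, 7 in NIH3T3 cells only and 12 in neither, where the mESC-only share was near that of all genes. The mESC-only ligands included Bmp4 (10109 bps, 120 TPM in mESCs), Pdgfa (8844 bps) and Inhbb (4919 bps), an activin subunit. The NIH3T3-only ligands included Fgf7 (59576 bps, 25.1-fold, 168 TPM), whose strongest peak also met the region of another gene, and Hgf (7692 bps, 47.8 TPM), both secreted by fibroblasts to act on epithelia. Amotl2, of the Hippo pathway, had 10342 and 14993 bps. Smad7, an inhibitor of TGF-β signalling, was shared with 26605 and 5163 bps at 28.8 and 19.3 TPM.

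Housekeeping functions differed in how far they were shared. Ribosomal protein genes were covered in both lines in 78 of 82 cases, with a median of 6432.5 bps in mESCs and 6273 bps in NIH3T3 cells and a median log2 ratio of -0.01. Rps27l was covered in mESCs only, and Rpl10l, Rpl39l and Rpl3l in neither. Splicing factor genes were shared in 52 of 62 cases, chromatin regulators in 35 of 40, chaperones in 22 of 27 and tRNA synthetases in 17 of 20, with median log2 bp ratios of 0.16, 0.98, 0.12 and 1.60 over the shared members. Cholesterol synthesis genes were shared in 16 of 20 cases, with a median log2 ratio of -0.43, and all 20 reached 10 TPM in both lines. Genes of transcription elongation and RNAPII, to which Paf1C belongs, were shared in 25 of 38 cases and covered in mESCs only in 12. Translation factor genes were shared in 43 of 62 cases, proteasome genes in 23 of 39 and glycolysis genes in 13 of 18. Of 371 solute carrier genes 78 were shared, 88 covered in mESCs only, 8 in NIH3T3 cells only and 197 in neither, all near the shares of all genes. Of 27 integrin genes 16 (59.3%) were covered in neither, against 52.5% of all genes.

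Respiratory chain, DNA replication, cell cycle and zinc finger genes each had more mESC-only members than the 21.7% of all genes. Their mESC-only shares were 47.6%, 40.5%, 43.2% and 43.9%, respectively. Over the 5016 genes at 10 TPM or more in both lines the mESC-only share was 32.7%. How much of the excess in these lists goes with their RNA level was not tested. Of 103 genes of the respiratory chain and ATP synthase, 42 were shared, 49 were covered in mESCs only and 1 in NIH3T3 cells only, although 94 reached 10 TPM in mESCs and 88 in NIH3T3 cells. Ndufv3, of complex I, had 4516 bps and 10.0-fold in mESCs only, at 144 and 109 TPM. Of 42 DNA replication genes, all at 10 TPM or more in both lines, 22 were shared, 17 were covered in mESCs only and none in NIH3T3 cells only. Tyms, the thymidylate synthase, had 4914 bps in mESCs only at 53.3 and 55.8 TPM. Of 37 cell cycle genes, 16 were shared and 16 covered in mESCs only, among them Bub1b of the spindle checkpoint (7025 bps, 124 and 49.7 TPM). Of 394 zinc finger (Zfp) genes, 173 were covered in mESCs only, 67 in both, 12 in NIH3T3 cells only and 142 in neither. The NIH3T3 list holds fewer peaks than the mESC list, and the part of this in the counts of each list was not tested.

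Replication-dependent histone genes, whose transcripts end in a stem-loop and carry no poly(A) tail, were covered in both lines in 39 of 67 cases and in mESCs only in 6. Their RNA was near 0 in these libraries, with medians of 0.73 TPM in mESCs and 0.40 TPM in NIH3T3 cells. The strongest peak was shared with a neighbouring gene in 42 of 45 covered members in mESCs, and these genes lie in tight clusters. Receptor and keratin gene families were rarely covered. Of 1135 olfactory receptor genes 1125 had no peak in either line, as had 324 of 329 vomeronasal receptor genes, 48 of 53 keratin genes and 31 of 39 Hox genes. The 5 Hox genes covered in NIH3T3 cells only (12.8%, against 3.41% of all genes) included Hoxa5, with 778 bps at 11.1 TPM. In all 5 the strongest peak also met the region of another gene. Of the tissue markers, 7 of 10 neural, 7 of 9 muscle and 6 of 8 blood markers had no peak in either line. The mESC-only shares of 20% of neural and 22.2% of muscle markers were near the 21.7% of all genes. None of the 7 liver or the 9 endoderm and trophoblast markers was covered.

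**Figure D2:**
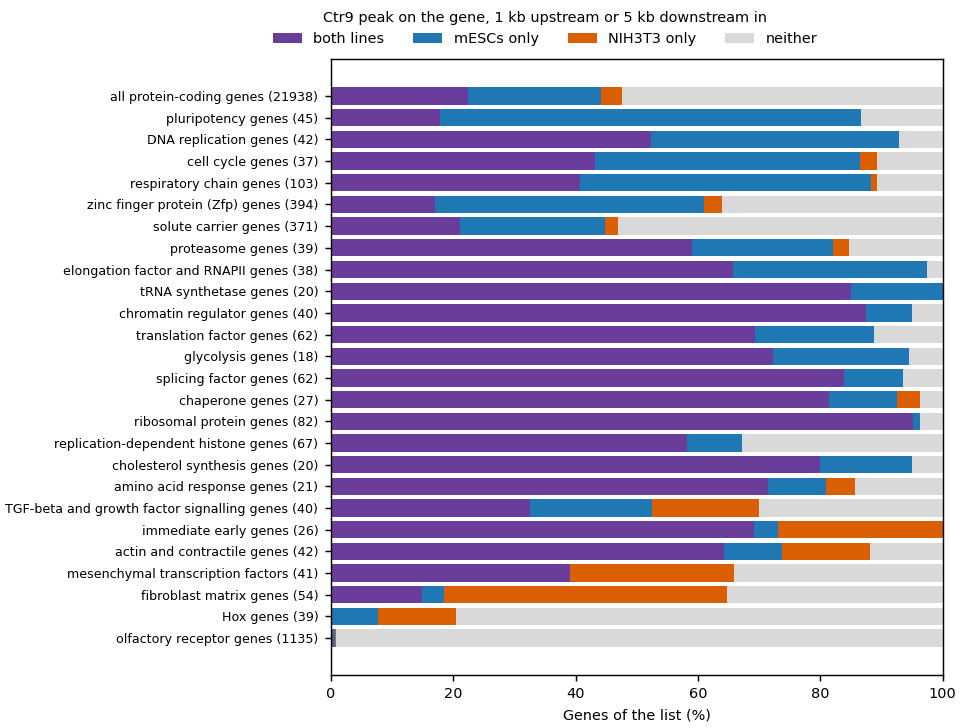
Share of each gene list covered by Ctr9 in both lines, in mESCs only, in NIH3T3 cells only and in neither, as stacked horizontal bars adding to 100%, with the number of genes in parentheses. The pluripotency list is mostly mESC-only (31 of 45), the fibroblast matrix list holds the largest NIH3T3-only share of the lists drawn (25 of 54), and ribosomal protein genes are nearly all shared (78 of 82).

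The coverage also lay at different positions along the gene, toward the end in mESCs and at the start more often in NIH3T3 cells than in mESCs. In mESCs, 69.6% of covered genes had a peak within 1 kb of the annotated end (95% exact Clopper-Pearson interval 68.7 to 70.5) and 30.2% (29.3 to 31.1) within 1 kb of the start. In NIH3T3 cells the shares were 45.6% (44.3 to 46.9) at the end and 49.3% (48.0 to 50.6) at the start. The intervals cover counting error only, over genes that are not replicates.

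The same contrast held within the 4910 shared genes. Of these, 76.5% were covered at the end in mESCs and 48.1% in NIH3T3 cells, against 37.8% and 50.3% at the start. At the end, 2117 genes were covered in both lines, 1637 in mESCs only and 247 in NIH3T3 cells only. At the start, 1427 were covered in both, 429 in mESCs only and 1043 in NIH3T3 cells only. Restricting to the 2251 shared genes with at least 10 TPM in both lines and RNA within 2-fold gave 83.3% and 54.6% at the end and 38.5% and 54.6% at the start. In the 945 shared genes whose region overlaps no other, the shares were 72.6% and 48.7% at the end and 31.9% and 50.8% at the start. In the 2070 shared genes whose covered bps were within 2-fold, the gap at the end was smaller, with 76.6% and 63.6%, and the starts were at 42.0% and 58.5%, so that NIH3T3 ends outnumbered NIH3T3 starts there. With the same number of peaks from each line, they were 72.6% and 49.9% at the end and 32.7% and 50.6% at the start.

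**Figure D3:**
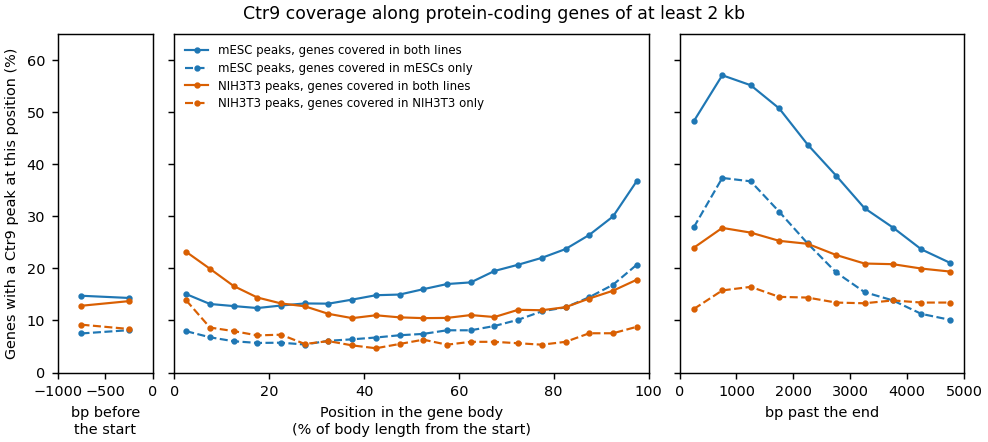
Share of genes with a Ctr9 peak at the middle of each bin, from 1 kb before the start, through the body in 20 equal bins, to 5 kb past the end, for genes of at least 2 kb. Blue lines are mESC peaks and orange lines NIH3T3 peaks, solid for genes covered in both lines and dashed for genes covered in that line only. The mESC curve of shared genes reaches 57.1% past the end, and the NIH3T3 curve has a second high point of 23.2% at the start of the body.

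Along the gene, mESC coverage built up toward the 3′ side. In shared genes of at least 2 kb, 15.1% had an mESC peak at the first of 20 body bins, 36.8% at the last, and 57.1% at 750 bps past the end, from where the share fell to 21.1% at 4750 bps. NIH3T3 peaks lay at 23.2% of the same genes in the first bin, 17.8% in the last and 27.8% at 750 bps past the end. Per gene, the downstream 5 kb held a mean of 49.0% of the covered bps in mESCs and 40.3% in NIH3T3 cells, with 23.0% of the region's length. Summed over these genes, the shares were closer, at 37.0% and 34.3%, and in genes with a body of at least 50 kb the order turned, at 25.1% in mESCs and 29.0% in NIH3T3 cells. The first of 3 equal parts of the body held a mean per gene of 10.1% in mESCs and 23.6% in NIH3T3 cells. Summed over all shared genes it held 14.5% and 21.9%. With a body of at least 50 kb this order turned too, at 20.7% in mESCs and 17.7% in NIH3T3 cells. In genes covered in a single line, the downstream 5 kb held a mean of 52.7% of coverage in mESC-only genes and 33.1% in NIH3T3-only genes. These are different genes, and the downstream 5 kb made up 24.0% and 17.1% of the length of their regions. The part of gene length in this gap was not tested.

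The strongest summit lay past the gene end in 60.5% of shared genes in mESCs and 43.3% in NIH3T3 cells. The strongest summits of both lines lay within 1 kb of each other in 1482 shared genes (30.2%). Of the 3428 with summits further apart, the mESC summit was the more downstream in 2156 (62.9%, interval 61.3 to 64.5). At the level of bases, 24.5% of the bps under peaks of either line in shared genes were under peaks of both, and 1054 genes (21.5%) shared no base. In Actb the strongest mESC summit lay past the end and the strongest NIH3T3 summit in the body, 836 bps from the start.

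**Figure D4:**
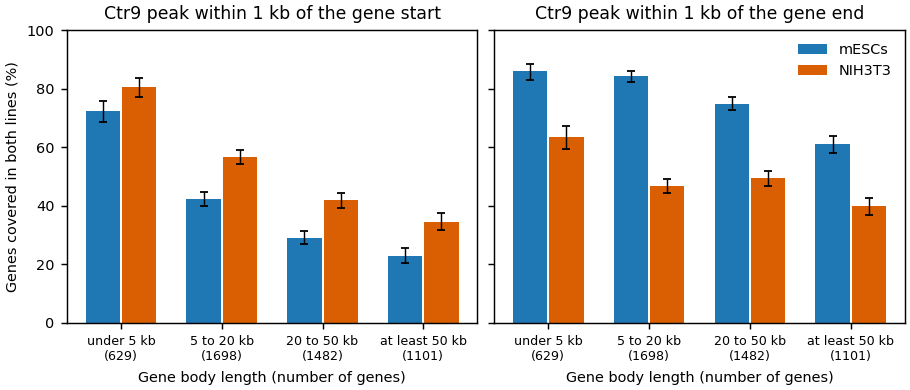
Share of the 4910 shared genes with a Ctr9 peak within 1 kb of the start (left) and of the end (right), by gene body length, with mESCs in blue and NIH3T3 cells in orange. Error bars are 95% exact Clopper-Pearson intervals for counting error, and in each length class the NIH3T3 bar is the higher at the start and the mESC bar the higher at the end.

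Gene length shifted both shares and left their order in place. In shared genes with a body under 5 kb, where start and end lie close together, starts were covered in 72.3% in mESCs and 80.6% in NIH3T3 cells, and ends in 86.0% and 63.4%. In NIH3T3 cells, starts and ends were at 56.7% and 46.8% with a body of 5 to 20 kb. At 20 to 50 kb ends were the more often covered, with 41.9% and 49.5%. With a body of at least 50 kb, starts were covered in 22.8% and 34.5%, and ends in 61.0% and 39.8%. Neither end was covered in 31.3% and 38.1% of these long genes, whose peaks lay in the body or further downstream.

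Most lists of functions followed the same order of the 2 lines. Their counts are to be read against all shared genes in mESCs and NIH3T3 cells. Of these, 76.5% and 48.1% were covered at the end and 37.8% and 50.3% at the start. Of 24 lists with at least 5 shared members, 19 had more members covered at the end in mESCs, 2 had the same number in both lines, the ribosomal protein and fibroblast matrix genes, and 3 had more in NIH3T3 cells. These 3 were cholesterol synthesis (14 and 15 of 16), TGF-β and growth factor signalling (7 and 8 of 13) and mesenchymal transcription factors (8 and 9 of 16). The counts in these 3 lists are close, and no difference between lists was tested. At the start, 17 of the 24 lists had more members in NIH3T3 cells and 2 the same number. The 5 with more in mESCs were chromatin regulators (17 and 13 of 35), pluripotency genes (8 and 4 of 8), cell cycle genes (8 and 6 of 16), replication-dependent histones (38 and 36 of 39) and ribosomal protein genes. Of the 42 shared respiratory chain genes, 38 were covered at the end in mESCs and 18 in NIH3T3 cells, and 20 and 28 at the start. Of the 67 shared Zfp genes, 46 and 26 were covered at the end (68.7% and 38.8%) and 24 and 41 at the start (35.8% and 61.2%). Of the 15 shared amino acid response genes, targets of the transcription factor Atf4, 14 and 6 were covered at the end. Ribosomal protein genes were covered at both positions in both lines, with 77 of 78 ends in each and 72 and 71 starts. In a short gene 1 peak can meet both positions, as in Rps12, whose region with a body of 2093 bps met 1 peak in each line. The strongest peak also met another gene's region in 54 of 79 covered ribosomal protein genes in mESCs and 57 of 78 in NIH3T3 cells. Cholesterol synthesis genes were seldom covered at their starts (1 and 3). Shared immediate early genes had 18 and 14 ends but 7 and 15 starts covered, of 18.

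At promoters, sequence features were read from RefSeq windows of GRCm38.p6 that run from 250 bases before to 50 after each start. Windows of 16515 of the 21938 genes could be matched by symbol, which gave 20125 distinct promoters. Peaks met 597 of these in both lines, 1068 in mESCs only and 747 in NIH3T3 cells only, and no peak met the other 17713. The GC box core GGGCGG, on either strand, was in 65% of promoters covered in both lines, 60.2% in mESCs only, 66.7% in NIH3T3 cells only and 47.7% of all. The CAAT box CCAAT, on either strand, was in 36.3%, 38.0% and 34.0% against 37.8% of all, and TATAAA, on either strand, in 8.04%, 5.90% and 7.50% against 12.1% of all. The median number of CpGs in the 300 bases was 23, 18 and 23 against 14 in all promoters. Promoters were not matched for RNA level, so these shares cannot separate Ctr9 coverage from transcription of the gene. A match is a description of letters and not a binding site.

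The sequences below are the 250 bases before the RefSeq start of 5 genes whose promoter window met a Ctr9 peak, chosen after their values were seen to show 1 shared promoter and 2 from each single line, 5′ to 3′ on the strand of the gene, with the 3 motifs, on either strand, in capitals. No annotated exon lies in these bases. Rpl13, of the large ribosomal subunit, was covered by 5127 bps at 20.3-fold in mESCs and 5192 bps at 8.43-fold in NIH3T3 cells, and its strongest peaks also met the region of another gene. Its window lies at chr8:123102100-123102349 on the plus strand, Sox2 at chr3:34649745-34649994 and Nanog at chr6:122707239-122707488, both on the plus strand, and Jun at chr4:95052223-95052472 and Rhob at chr12:8500010-8500259, both on the minus strand.
Rpl13: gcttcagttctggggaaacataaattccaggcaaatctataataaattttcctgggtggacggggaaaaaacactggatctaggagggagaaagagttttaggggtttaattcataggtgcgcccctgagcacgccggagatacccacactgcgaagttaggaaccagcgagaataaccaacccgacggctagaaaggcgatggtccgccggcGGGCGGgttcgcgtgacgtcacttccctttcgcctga
Sox2: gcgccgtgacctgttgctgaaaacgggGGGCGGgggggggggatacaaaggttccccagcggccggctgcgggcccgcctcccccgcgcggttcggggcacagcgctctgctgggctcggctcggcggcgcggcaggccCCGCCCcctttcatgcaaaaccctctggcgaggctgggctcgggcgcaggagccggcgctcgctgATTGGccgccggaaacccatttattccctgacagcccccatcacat
Nanog: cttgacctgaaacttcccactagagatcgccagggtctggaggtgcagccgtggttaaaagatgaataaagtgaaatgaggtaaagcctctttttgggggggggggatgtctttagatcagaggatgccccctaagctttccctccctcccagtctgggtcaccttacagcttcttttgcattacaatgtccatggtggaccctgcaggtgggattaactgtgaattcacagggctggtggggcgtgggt
Jun: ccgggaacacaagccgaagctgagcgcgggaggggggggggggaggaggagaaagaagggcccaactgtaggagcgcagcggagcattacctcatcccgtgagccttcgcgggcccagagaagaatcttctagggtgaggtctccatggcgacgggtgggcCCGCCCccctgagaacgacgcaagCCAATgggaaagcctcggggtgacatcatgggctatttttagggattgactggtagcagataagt
Rhob: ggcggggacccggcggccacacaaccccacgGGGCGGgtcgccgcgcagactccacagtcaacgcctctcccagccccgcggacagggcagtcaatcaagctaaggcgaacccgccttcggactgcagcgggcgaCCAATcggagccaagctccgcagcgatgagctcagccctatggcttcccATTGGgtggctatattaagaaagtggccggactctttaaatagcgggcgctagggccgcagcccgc

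These windows hold 17 CpGs in Rpl13, 27 in Sox2, 3 in Nanog, 15 in Jun and 24 in Rhob. Nanog has none of the 3 motifs, and no window has TATAAA.

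RNA levels followed the classes of coverage. Genes covered in both lines had median levels of 18.6 TPM in mESCs and 18.9 TPM in NIH3T3 cells. Genes covered in mESCs only had 10.7 and 6.29 TPM, with a median log2 ratio, taken as log2 of TPM plus 1 in mESCs over NIH3T3 cells, of 0.41. Genes covered in NIH3T3 cells only had 1.51 and 12.4 TPM and a median log2 ratio of -1.27. Over genes whose region overlaps no other, the ratios were larger, at 0.69 for mESC-only and -2.13 for NIH3T3-only genes. In this last class 404 of 747 genes (54.1%) were more than 2-fold lower in mESCs, whereas in the mESC-only class 1425 of 4762 (29.9%) were more than 2-fold higher. The NIH3T3-only class had the longest gene bodies, with a median of 41235 bps, against 21732 bps in shared, 18602 bps in mESC-only and 13540 bps in uncovered genes.

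**Figure D5:**
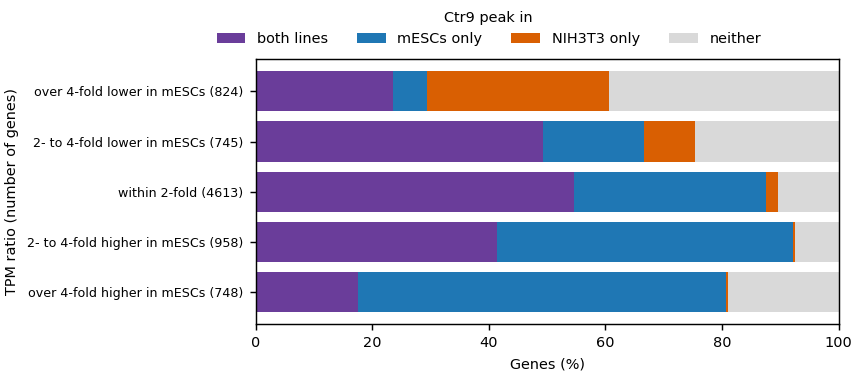
Share of genes covered by Ctr9 in both lines, in mESCs only, in NIH3T3 cells only and in neither, as stacked bars adding to 100%, for 5 classes of the RNA ratio between mESCs and NIH3T3 cells, over genes with at least 10 TPM in either line. The NIH3T3-only share is 31.2% in genes over 4-fold lower in mESCs, and the mESC-only share is 63.2% in genes over 4-fold higher.

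Read from the RNA side, genes that differed by over 4-fold were more often covered in the line with the higher RNA. Of 748 genes over 4-fold higher in mESCs, 473 (63.2%) were covered in mESCs only and 2 in NIH3T3 cells only. Of 824 genes over 4-fold lower in mESCs, 257 (31.2%) were covered in NIH3T3 cells only, 48 in mESCs only and 325 (39.4%) in neither. Of 5016 genes at 10 TPM or more in both lines, 2832 (56.5%) were covered in both, 1640 (32.7%) in mESCs only, 117 (2.33%) in NIH3T3 cells only and 427 (8.51%) in neither.

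Coverage grew with RNA in both lines, and the difference between them was largest, in percentage points, at 10 to 100 TPM. Of genes at 10 to 100 TPM in the line itself, 86.2% were covered in mESCs and 53.3% in NIH3T3 cells. At 1000 TPM or more the shares were 97.0% and 94.2%, and the median strongest fold was 18.2 and 12.9. At this level starts were covered in 90.8% and 87.6% of covered genes and ends in 99% and 95.9%. Below 1 TPM, 13.1% and 7.23% of genes were covered.

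The histone mark H3K27ac, which marks promoters and enhancers in use, had a peak in the region of 93.0% of shared genes in NIH3T3 cells and 83.1% in mESCs. For genes covered in NIH3T3 cells only the shares were 90.1% in NIH3T3 cells and 41.8% in mESCs. For genes covered in mESCs only they were 69.2% in mESCs and 77.8% in NIH3T3 cells, so most of these genes carried H3K27ac in the line without a Ctr9 peak. For genes covered in neither line they were 15.3% in mESCs and 26.6% in NIH3T3 cells. The NIH3T3 share was thus the higher in every class, whichever line had the Ctr9 peak.

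Some of the most strongly transcribed genes had no Ctr9 peak in either line. Of 609 genes at 100 TPM or more in both lines, 494 were covered in both, 85 in mESCs only, 4 in NIH3T3 cells only and 26 in neither. The uncovered genes, named here after their values were seen, included Eef2, the elongation factor of translation (1979 and 2475 TPM), Actg1, the cytoplasmic γ-actin (599 and 1186 TPM), Snrpe (413 and 456 TPM) and Atf4 (172 and 246 TPM). Of these 26 genes, 20 had no H3K27ac peak in either line, against 1 of the 494 covered in both. At 10 TPM or more in both lines, 76 of the 427 uncovered genes lacked H3K27ac peaks in both lines, against 9 of the 2832 covered in both. The authors removed ENCODE blacklist regions before peak calling, and the part of that step in these gaps was not tested. A gene without a peak in these lists is therefore not shown to lack Ctr9.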

How the data were processed

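Ctr9 and H3K27ac ChIP-seq and RNA-seq of mESCs and NIH3T3 cells were compared, with 1 library per line and target. Per the methods, the authors aligned ChIP-seq reads to mm10 with Bowtie2 2.3.5.1, removed ENCODE blacklist regions and used MACS2 2.2.6 to call the peaks of each library, with 0.01 as the q-value limit. The deposited peaks give a fold enrichment over the local background and a −log10 q-value, both made by the authors with MACS2. The deposited RNA-seq tables hold TPM values and estimated counts per transcript, made by the authors with kallisto 0.46.1.

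Peaks were laid over GENCODE M21 protein-coding genes, from 1 kb upstream to 5 kb downstream. A gene start or end was covered when a peak met the 1 kb on either side, where start and end are the outermost annotated ones. RNA was taken from the transcript with the highest TPM, with a pseudocount of 1 TPM for ratios, and 21905 genes had one. Peaks of NELFA and RNAPII in mESCs were not used here, and the 3 input libraries were not analysed here. Named genes were those with the highest fold (8 per class), the most covered bps or the most extreme bp ratio (5 each), ranked over genes whose strongest peak met no other gene's region and without Gm and Rik gene models, up to 4 members per list and class by fold, and genes that the study names. A gene that these rules select is not reported here. The genes, lists and rules were chosen with earlier results of these data known. Shares carry exact Clopper-Pearson 95% intervals for counting error only. Python 3.11.15, pandas 2.3.3, NumPy 2.4.6, SciPy 1.17.1 and Matplotlib 3.10.9 were used.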

Additional observations from a re-analysis of the deposited data

How the results depend on the processing

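Of 63 alternative values, 42 moved and none changed direction. The other 21 were classed as the same, but some of these counts of genes shifted as well. With the same number of peaks from each line, 3762 genes were covered in mESCs only and 4534 in both, against 4769 and 4910. On the gene body alone, 4127 genes were covered in mESCs only, 1001 in NIH3T3 cells only and 3323 in both. No paired analysis was possible because each line had 1 library per target. With the same number of peaks from each line, 1125 genes were covered in NIH3T3 cells only, mESC-covered genes had the start covered in 27.4% and the end in 67.3%, and the median log2 ratios were 0.60 for bps and 0.37 for fold. The shared share of bps was 25.7%, and the log2 TPM ratios were 0.46 for mESC-only and -0.86 for NIH3T3-only genes. With a −log10 q of at least 5, mESC starts came to 28.4%, mESC ends to 68.1%, NIH3T3 ends to 43.7%, the fold ratio to 0.29 and the shared bps to 25.5%. Over genes whose region overlaps no other, 1289 genes were covered in mESCs only, 348 in NIH3T3 cells only and 945 in both, with mESC starts at 23.3%, mESC ends at 65.7%, a fold ratio of 0.20, shared bps of 23.0% and TPM ratios of 0.69 and -2.13. On the gene body alone the bp ratio was 0.44, the fold ratio 0.22, the shared bps 22.4% and the TPM ratios 0.45 and -0.81. With the ends of the transcript of highest TPM, mESC starts were 31.2%, mESC ends 65.2% and NIH3T3 ends 42.3%. Within 500 bps, starts were 24.7% and 41.8% and ends 57.4% and 36.4% in mESCs and NIH3T3 cells. Means over genes gave a bp ratio of 0.96, a fold ratio of 0.34 and TPM ratios of 0.69 and -1.83. A pseudocount of 0.1 TPM gave 0.56 and -1.66, and a TPM of at least 1 in either line 0.53 and -1.91. Subsets with fewer genes or peaks are smaller by construction, and the cause of the other changes was not tested. The ChIP-seq depth, which the peak lists do not give, and the single libraries limit all comparisons.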
